A study of Mus musculus with 43 samples.

Results

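The Tex genes carry a name ("testis expressed") that records where their transcripts were found, and the group holds proteins of unrelated function. Taken here were the protein-coding genes on autosomes of the GENCODE vM21 annotation whose symbol is Tex followed by a digit, 28 genes out of the 55401 gene identifiers in the RNA tables. A further 2 autosomal genes with such a symbol were left out and the 8 on the X chromosome were not used. The name is no guide to level: 10 of the 28 genes reached a mean of 1 TPM (a level scaled for transcript length and library size) in the testis of 7-day-old (P7) mice, 35.7%, against 63.1% of the 20780 autosomal protein-coding genes.

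Male germ cells pass from spermatogonia, which divide by mitosis, through spermatocytes in meiosis to spermatids, and in the first wave after birth mouse testes hold spermatogonia at P7 and reach meiotic spermatocytes by P14. Several Tex proteins act in that sequence. TEX14 holds open the intercellular bridges between sister germ cells, TEX15 takes part in piRNA-directed silencing of transposons, and TEX101 is a glycoprotein on the surface of germ cells that is needed for sperm to migrate to the egg. Others work in most cells: TEX264 is a receptor for autophagy of the endoplasmic reticulum (ER), TEX10 belongs to the rixosome, which processes ribosomal RNA, TEX261 is a membrane protein of the ER and Golgi, and TEX2 is a lipid transfer protein of ER contact sites. Prmt1, the arginine methyltransferase that the study removed, deposits asymmetric dimethylarginine, including H4R3me2a on histone H4.

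RNA had been measured at P7 in WT mice and in Prmt1-dKO mice, which carry floxed Prmt1 alleles (exons 4 and 5) and a CreERT2 knocked in at the germline gene Ddx4, on the C57BL/6J background and after tamoxifen on 3 days. Bulk RNA-seq of whole testis had 3 libraries a genotype, and Smart-seq2 of germ cells sorted by the EGFP of the same knock-in had 2 a genotype. The study's methods describe the sorted controls as heterozygous Ddx4-GFP-CreERT2-Prmt1+/lox mice, while the labels call them WT, and the labels give spermatogonia as the cell type of the bulk libraries too although these hold RNA of the whole testis. CUT&Tag peak lists, 33 in all, covered 7 marks in cell suspensions from WT C57BL/6J tubules at P7 and P14 (2 or 3 lists a mark and age), with 2 H4R3me2s lists from Prmt1-dKO at P7. Tamoxifen on 3 days is recorded for those Prmt1-dKO lists and for no WT list. The P14 samples are titled spermatogonia and labelled spermatocytes. The labels do not say which samples came from separate animals, so p-values measure the spread between these samples only.

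The libraries held 12396317 to 16598233 counts in bulk and 15610354 to 18547078 in sorted cells. Prmt1 itself was at 652, 604 and 638 TPM in WT and 410, 433 and 402 TPM in Prmt1-dKO testes, and at 350 and 239 TPM in WT and 179 and 151 TPM in Prmt1-dKO sorted cells, so the groups did not overlap in either assay. The summed TPM of 10 germ cell markers was at a like level in sorted WT (1448 and 1429) and bulk WT (1491 to 1754), and that of 6 Sertoli markers was 209 to 475 in the sorted libraries against 2808 to 4592 in bulk. The sorted libraries differed from each other far more than the bulk ones (biological coefficient of variation 0.767 and 0.155). The sorted WT libraries detected 17106 and 15587 genes, fewer than the 21404 and 20194 of the sorted Prmt1-dKO libraries.

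The promoters of 5 Tex genes are given first, since H3K4me3 at P7, described below, divides along their CpG content. The sequences are from the RefSeq table for GRCm38.p6, from 250 bases before to 50 after the annotated start, 5′ to 3′ on the gene's strand, with CpG dinucleotides in capitals. Tex19.2 and Tex45 are the members that gained H3K4me3 between the ages, and Tex30, Tex101 and Tex37 were chosen after their values were seen, as the highest genes and a gene near the detection limit. They lie at chr1:44102392-44102691 (Tex30, minus strand), chr7:24672001-24672300 (Tex101, minus), chr11:121118628-121118927 (Tex19.2, minus), chr8:3470612-3470911 (Tex45, plus) and chr6:70918873-70919172 (Tex37, minus).
Tex30: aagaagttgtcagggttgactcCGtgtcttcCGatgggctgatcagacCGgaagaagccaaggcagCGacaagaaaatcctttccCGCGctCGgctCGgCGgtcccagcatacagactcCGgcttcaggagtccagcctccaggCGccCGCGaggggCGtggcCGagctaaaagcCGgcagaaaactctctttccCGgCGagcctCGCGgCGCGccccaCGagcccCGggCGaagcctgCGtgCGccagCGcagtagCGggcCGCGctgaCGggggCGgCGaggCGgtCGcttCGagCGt
Tex101: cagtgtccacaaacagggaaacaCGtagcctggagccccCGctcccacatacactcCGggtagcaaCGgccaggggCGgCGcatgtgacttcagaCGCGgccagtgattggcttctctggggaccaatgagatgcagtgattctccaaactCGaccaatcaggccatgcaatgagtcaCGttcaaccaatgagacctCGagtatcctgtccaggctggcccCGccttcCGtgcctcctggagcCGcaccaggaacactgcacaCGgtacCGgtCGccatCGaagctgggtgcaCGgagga
Tex19.2: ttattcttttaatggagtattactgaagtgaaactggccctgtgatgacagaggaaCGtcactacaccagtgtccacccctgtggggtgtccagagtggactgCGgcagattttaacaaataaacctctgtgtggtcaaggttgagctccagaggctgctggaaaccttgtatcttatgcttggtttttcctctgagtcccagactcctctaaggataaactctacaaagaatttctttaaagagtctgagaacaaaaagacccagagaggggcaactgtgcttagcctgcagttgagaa
Tex45: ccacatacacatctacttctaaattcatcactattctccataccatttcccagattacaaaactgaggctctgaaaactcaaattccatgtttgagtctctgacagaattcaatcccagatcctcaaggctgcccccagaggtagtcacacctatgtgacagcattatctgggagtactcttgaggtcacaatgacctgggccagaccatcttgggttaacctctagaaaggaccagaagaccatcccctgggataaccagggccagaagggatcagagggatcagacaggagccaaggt
Tex37: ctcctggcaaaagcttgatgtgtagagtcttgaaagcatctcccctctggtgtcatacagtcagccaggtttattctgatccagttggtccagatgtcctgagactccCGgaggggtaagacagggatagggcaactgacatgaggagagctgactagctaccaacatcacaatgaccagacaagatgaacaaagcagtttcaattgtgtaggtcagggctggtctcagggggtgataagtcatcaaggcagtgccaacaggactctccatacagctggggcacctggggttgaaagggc

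Tex30 has 38 CpGs in these 300 bases, Tex101 has 19, Tex19.2 has 2, Tex37 has 1 and Tex45 has 0. Over the 24 members in the table (Tex15, Tex22, Tex24 and Tex43 had no entry) the median was 4, against 8 for 27025 genes. In addition, 3 short motifs were searched on both strands. TGACG, a core of the cAMP response element, is in the promoters of 4 members, Tex19.2, Tex30, Tex36 and Tex50, and in 20.8% of the 32851 promoters of the table. TATAAA is in that of Tex10 alone among the members (13.6% of all promoters), and CNCCTCAG, the motif known for STRA8, in those of Tex26, Tex264 and Tex52 (7.94% of all). A match describes the letters and does not show that a factor binds.

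In sorted WT germ cells Tex101 stood far above the other members. Its level was 1576 and 1591 TPM in sorted WT, 651 and 628 TPM in sorted Prmt1-dKO, 59.7, 79.8 and 74.9 TPM in bulk WT and 94.8, 111 and 79.7 TPM in bulk Prmt1-dKO. Next came Tex30, with 575 and 535 TPM in sorted WT, 581 and 653 TPM in sorted Prmt1-dKO, and 117 to 142 TPM over the 6 bulk libraries. Both sorted genotypes were thus above every bulk library for each gene, and in bulk the order was reversed, with Tex30 above Tex101.

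Tex10 had 174 and 161 TPM in sorted WT, 85.1 and 108 TPM in sorted Prmt1-dKO, 64.7, 76.5 and 60.2 TPM in bulk WT and 78.2, 52.8 and 78.4 TPM in bulk Prmt1-dKO. Tex264 had 108 and 171 TPM in sorted WT, 80.3 and 79.7 TPM in sorted Prmt1-dKO, 56.1, 70.0 and 68.6 TPM in bulk WT and 71.9, 81.2 and 58.3 TPM in bulk Prmt1-dKO. Tex15 had 141 and 101 TPM in sorted WT, 52.3 and 77.9 TPM in sorted Prmt1-dKO, 34.8, 45.5 and 31.8 TPM in bulk WT and 36.1, 29.4 and 30.4 TPM in bulk Prmt1-dKO. For all 3 genes the sorted WT libraries were the highest, and the bulk genotypes overlapped.

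Tex261 had 79.4 and 85.9 TPM in sorted WT, 45.8 and 42.0 TPM in sorted Prmt1-dKO, 58.4, 55.1 and 51.5 TPM in bulk WT and 49.3, 42.1 and 42.0 TPM in bulk Prmt1-dKO. Tex9 had 51.9 and 77.6 TPM in sorted WT, 56.3 and 74.5 TPM in sorted Prmt1-dKO, 31.1, 27.1 and 23.7 TPM in bulk WT and 21.6, 19.5 and 20.6 TPM in bulk Prmt1-dKO. In the sorted cells the genotypes overlapped for Tex9 and did not for Tex261.

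Tex19.2, of a family of mammal-specific genes active in germ cells and placenta, had 32.5 and 42.5 TPM in sorted WT, 48.3 and 49.2 TPM in sorted Prmt1-dKO, 29.8, 30.0 and 30.2 TPM in bulk WT and 22.5, 23.96 and 21.0 TPM in bulk Prmt1-dKO. The family has near-identical copies, so its share of the reads, as RSEM estimated it, is uncertain. Tex14 had 30.2 and 20.3 TPM in sorted WT, 42.5 and 50.3 TPM in sorted Prmt1-dKO, 21.2, 25.9 and 25.2 TPM in bulk WT and 22.4, 23.5 and 37.8 TPM in bulk Prmt1-dKO. Tex2 was the lowest of the expressed members, with 10.8 and 16.8 TPM in sorted WT, 3.51 and 4.96 TPM in sorted Prmt1-dKO, 18.8, 16.1 and 13.5 TPM in bulk WT and 11.6, 8.21 and 11.4 TPM in bulk Prmt1-dKO. Some neighbours in this order overlapped: in sorted WT the range of Tex264 crossed those of Tex10 and Tex15, while Tex9 lay just below Tex261.

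**Figure D1:**
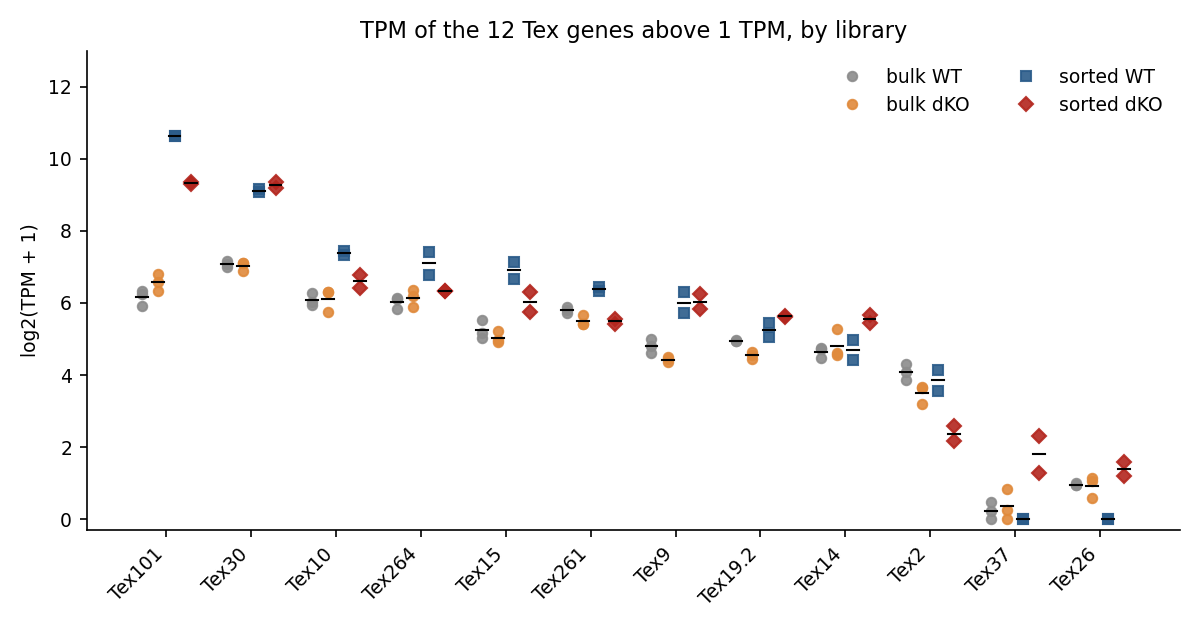
Level of the 12 members with a mean of at least 1 TPM in some group, as log2(TPM + 1) on the vertical axis, with a point for each library and a black line at the mean of each group (3 bulk WT, 3 bulk dKO, 2 sorted WT, 2 sorted dKO). Tex101 in sorted cells is the highest, at 1576 and 1591 TPM in WT and 651 and 628 TPM in dKO, and Tex26 and Tex37 are at 0 in sorted WT.

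The other 18 members stayed below a mean of 1 TPM in bulk and sorted WT. Tex24, Tex29, Tex35, Tex43, Tex46 and Tex47 had 0 counts in all 10 libraries, 6 of 28 members against 12.5% of autosomal protein-coding genes, and a count of 0 allows up to 3 counts in a library. Tex26 was the nearest to the expressed group, with 0.91, 0.92 and 0.99 TPM in bulk WT and 1.22, 0.49 and 1.07 TPM in bulk Prmt1-dKO. The median member was at 0.157 TPM in bulk WT, where the median gene was at 6.24 TPM.

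WT sorted cells and WT testis were compared to see which members are higher in the sorted cells, over 2 and 3 libraries. A gene was called with edgeR's quasi-likelihood test at a Benjamini-Hochberg FDR below 0.05 and at least a 2-fold difference. Of the 10 members with enough counts, 6 were called higher in sorted cells (18.7% of 16872 genes were) and 0 lower (29.8% of genes). Tex101 was 28.8-fold higher (log2 4.85, SE 0.16, edgeR FDR = 0.000527) and Tex30 was 5.23-fold higher (log2 2.39, SE 0.09, edgeR FDR = 0.000592). Tex9, Tex10, Tex15 and Tex264 were 2.64-fold to 2.79-fold higher. Tex261 (log2 0.81, edgeR FDR = 0.00188) and Tex19.2 (log2 0.65, edgeR FDR = 0.0277) passed the FDR and missed the 2-fold threshold, so that 8 of 10 members passed the FDR alone (56.9% of genes did). Tex2 (log2 -0.01) and Tex14 (log2 0.18, SE 0.50) did not pass, and the sorted WT libraries held 590 and 1004 counts for the former and 2090 and 681 for the latter. Without sorted WT replicate 1, Tex14 turned to log2 -0.91 and Tex2 to log2 0.26.

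The median member differed by log2 1.41 and the median of all genes by log2 -0.39. Of 6 meiotic markers 5 were called higher in sorted WT, and all 6 Sertoli markers were called lower, while of the 10 germ cell markers 1 was called higher and 0 lower (6 above and 4 below 0, median log2 0.14). The sort and the library protocol changed together, so their parts in these differences cannot be told apart. Of 6 listed partners of TEX101 on the sperm surface 4 were tested, and 2 were called higher and 1 lower.

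The genotypes were then compared in whole testis, 3 Prmt1-dKO against 3 WT libraries. None of the 10 members tested was called by edgeR (7.1% of 16554 genes were) or by DESeq2, and 3 members, Tex2, Tex15 and Tex101, had an unadjusted p below 0.05 in edgeR (33.9% of genes did). Tex2 passed the FDR alone, as did 19.1% of genes: it was 1.39-fold lower in Prmt1-dKO (log2 -0.48, SE 0.12, edgeR FDR = 0.0224), at 41.3 ± 2.88 CPM (counts scaled to library size) for WT against 29.6 ± 2.56 CPM for Prmt1-dKO (SD, n = 3 each). In bulk tissue, fewer cells of a type and less RNA per cell cannot be told apart.

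Tex101 was 1.51-fold higher in Prmt1-dKO testes (log2 0.59, SE 0.19, edgeR FDR = 0.0562), at 37.0 ± 5.66 CPM for WT against 55.9 ± 14.1 CPM for Prmt1-dKO (SD, n = 3 each). On the CPM scale its genotypes did not overlap, and on the TPM scale the lowest Prmt1-dKO library (79.7 TPM) lay just under the highest WT library (79.8 TPM). Tex15 was 1.33-fold lower (log2 -0.42, SE 0.15, edgeR FDR = 0.0827). The other 7 members lay between log2 -0.25 (Tex19.2) and 0.33 (Tex264).

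Groups that do not overlap were found for 4 of the 10 members on the CPM scale, Tex101 higher (20.9% of genes were) and Tex2, Tex15 and Tex261 lower (19.9% of genes were). On the TPM scale Tex2, Tex9, Tex19.2 and Tex261 were lower, while Tex15 and Tex101 overlapped. The median member was at log2 -0.01 and the median gene at log2 0.02. Summed markers of 3 other testis cell types were lower in Prmt1-dKO testes: 156 to 178 against 618 to 719 TPM for 5 Leydig markers, 208 to 367 against 648 to 698 TPM for 4 peritubular markers and 2808 to 3206 against 4260 to 4592 TPM for 6 Sertoli markers. Germ cell markers summed to 1390 to 1455 TPM in Prmt1-dKO against 1491 to 1754 TPM in WT. On the count scale 6 of these 10 were above 0 and 4 below, with 0 called. Endothelial markers (63.8 to 74.8 TPM in WT, 52.2 to 77.8 TPM in Prmt1-dKO) and macrophage markers (28.1 to 32.5 and 23.6 to 29.1 TPM) overlapped. The part of these in the members' differences was not tested.

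In sorted germ cells edgeR called 0 of the 14 members tested (0.0% of 16443 genes were called), and DESeq2 called Tex101. Of the 14, Tex26, Tex37, Tex45 and Tex52 had 0 counts in sorted WT and passed the filter on low counts through Prmt1-dKO alone, so they enter no count here. Among the other 10, Tex2, Tex10, Tex101 and Tex261 had an unadjusted p below 0.05 in edgeR, 4 of 10 against 16.6% of the 15022 genes with a count in both genotypes. Tex101 was 2.13-fold lower in Prmt1-dKO (log2 -1.09, SE 0.15, edgeR FDR = 0.0774, the smallest value in this comparison and one that other genes share), and DESeq2 gave log2 -1.14 with an adjusted p of 2.25e-20. The raw counts behind this were 20510 and 20776 in WT and 8365 and 7111 in Prmt1-dKO. With WT replicate 1 or 2 left out, which assumes that the lone control varies like the Prmt1-dKO libraries, edgeR called it (log2 -1.09 and -1.06) along with 7436 and 6118 genes in all, and with either Prmt1-dKO library left out its edgeR FDR was 1 and 0 genes were called.

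Below Tex101, 4 more members were lower in both Prmt1-dKO libraries than in both WT libraries on the CPM scale: Tex2 (log2 -1.33, SE 0.46, edgeR FDR = 0.18), Tex264 (log2 -0.63, SE 0.25, edgeR FDR = 0.232), Tex261 (log2 -0.61, SE 0.21, edgeR FDR = 0.168) and Tex10 (log2 -0.48, SE 0.15, edgeR FDR = 0.14). Such a separation held for 5 of 10 members in this direction and for 21.9% of genes with a count in both genotypes. Tex30 (log2 0.30, SE 0.13, edgeR FDR = 0.271) and Tex19.2 (log2 0.60, SE 0.24, edgeR FDR = 0.236) were higher in both Prmt1-dKO libraries. These were 2 of 10 members separated in that direction, as were 30.7% of genes. On the CPM scale Tex9, Tex14 and Tex15 overlapped, while on the TPM scale Tex15 was lower and Tex14 higher in both Prmt1-dKO libraries. The median of the 10 members was log2 -0.46, and that of the genes with a count in both genotypes was 0.05. Germ cell markers summed to 1448 and 1429 TPM in sorted WT and to 1799 and 1777 TPM in sorted Prmt1-dKO, with 9 of 10 above 0 (median log2 0.60) and 0 called. Sertoli markers lay apart between the sorted genotypes too, with a summed 209 and 296 TPM in WT and 381 and 475 TPM in Prmt1-dKO. All 6 had a log2 fold change above 0 (median 0.85), edgeR called 0 of them, and the part of these lists in the members' differences was not tested.

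Both scales shift all genes to a different degree. On the TPM scale the median expressed gene lay at log2 -0.15 in bulk and -0.25 in sorted cells, and on the count scale at 0.02 and 0.15. Tex9 in bulk was at log2 -0.41 on the TPM scale and 0.07 on the count scale, Tex14 in bulk was at 0.21 and -0.09, and Tex30 in bulk was at -0.04 and 0.12. These are the members whose direction depends on the scale, and Tex101 and Tex2 kept theirs in both assays.

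**Figure D2:**
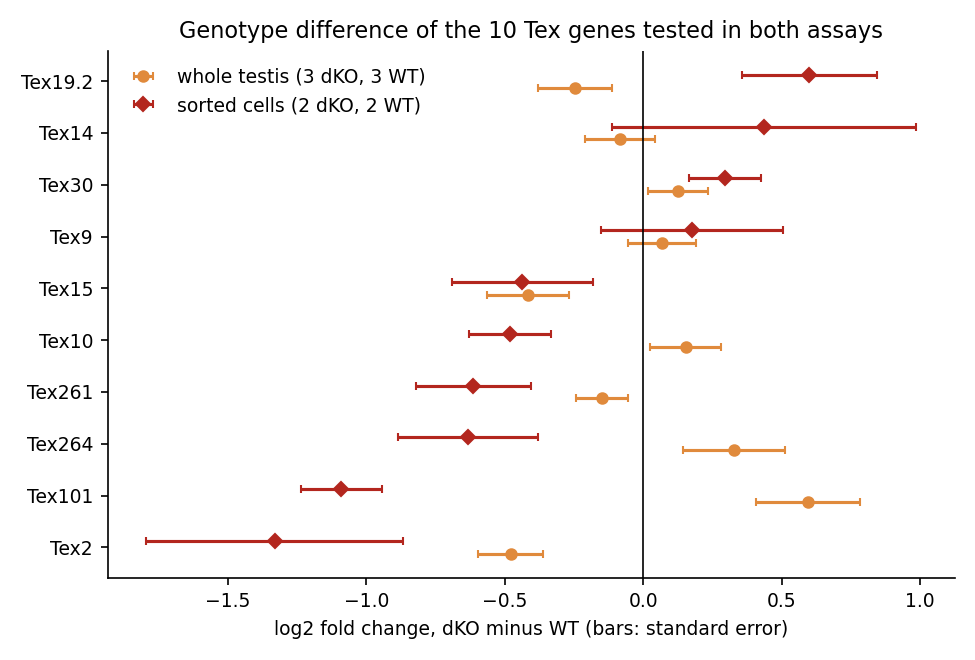
Log2 fold change of Prmt1-dKO over WT on the count scale (horizontal axis, bars are the standard error from edgeR) for the 10 members tested in both assays. Tex101 lies at -1.09 in sorted cells and at 0.59 in whole testis, while Tex2 lies below 0 in both.

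A model over all 10 libraries tested whether the genotype difference itself differed between sorted cells and whole testis. It did for 3 of 14 members at an FDR below 0.05, against 19.0% of 19608 genes, and for 2 of the 10 members with a count in all 4 groups, against 14.6% of such genes. The difference of differences was log2 -1.59 for Tex101 (SE 0.29, edgeR FDR = 0.00536) and log2 0.94 for Tex19.2 (SE 0.26, edgeR FDR = 0.0368). Tex101 passed in every alternative run, and Tex19.2 did not pass with RLE size factors (edgeR FDR = 0.0784), without the filter on low counts (0.0944) or when any of 7 of the 10 libraries was left out (0.0705 to 0.154). Tex26 also passed (edgeR FDR = 0.00276) and had 0 counts in sorted WT, so its fitted value is no measure of size. Tex10 (log2 -0.55, edgeR FDR = 0.104) and Tex264 (log2 -0.87, edgeR FDR = 0.111) did not pass, and Tex52, without a count in bulk, could not be fitted.

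Of 6 listed partners of TEX101, 2 had values on opposite sides of 0 in the assays as Tex101 did, and whether these differ between assays was not tested. Ly6k, another surface protein of the same family that binds TEX101, was at log2 -1.68 in sorted cells (SE 0.25, edgeR FDR = 0.0774) and 1.07 in bulk (SE 0.38, edgeR FDR = 0.0795), and the dipeptidase gene Dpep3 was at -1.68 and 0.78. In sorted cells Ly6k had a mean of 260 TPM in WT and 70.0 TPM in Prmt1-dKO, and Dpep3 had 348 and 92.8 TPM. The other partners had means of at most 17.0 TPM there, and Pgap1, a remodeller of GPI anchors, lay the other way (6.81 and 17.0 TPM, log2 1.31). Of the 5 partners tested in sorted cells, 2 were above and 3 below 0, and edgeR called 0. The 6 meiotic markers summed to 679 and 684 TPM in sorted WT and to 371 and 408 TPM in sorted Prmt1-dKO. Of these markers, edgeR called 0 of the 5 tested in sorted cells. Spo11, which cuts DNA to start meiotic recombination, set the WT libraries apart from each other, with 0.09 TPM in the lower and 18.88 TPM in the higher. In bulk the meiotic markers summed to 122 to 146 TPM in WT and 145 to 171 TPM in Prmt1-dKO. On the count scale all 6 were above 0 in bulk (median log2 0.59, against 0.02 for all genes). There edgeR called Spo11 higher (log2 1.43, SE 0.43, edgeR FDR = 0.0455). Sycp3 (log2 0.56, edgeR FDR = 0.00877) and Dmc1 (log2 0.62, edgeR FDR = 0.0269) passed the FDR alone. On the TPM scale Sycp1 went the other way, with a bulk mean of 42.7 TPM in WT and 38.7 TPM in Prmt1-dKO. Whether the mix of germ cell stages differed was not tested.

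Partners of the other expressed members were read the same way. The 7 partners of TEX14 at the intercellular bridge were all below 0 in bulk (median log2 -0.52, against 0.02 for all genes), with 0 called, while Tex14 was at log2 -0.09. Of these, 4 passed the FDR alone (19.1% of genes did): Racgap1, Ect2, Anln and Kif23, all regulators of cytokinesis. The largest difference was that of Racgap1 (log2 -0.999, SE 0.09, edgeR FDR = 0.000821). In sorted cells they split 3 up and 4 down, with 0 called. Among 9 partners of TEX15 in piRNA silencing, Dnmt3c, a DNA methyltransferase of male germ cells, was called lower in bulk (log2 -1.95, SE 0.56, edgeR FDR = 0.0413), and in sorted cells 0 of the 8 tested were called. The direction of 4 of these 8 differed between the count and the TPM scale, among them Dnmt3a (log2 0.02 on the count scale, mean 170 TPM in WT and 127 TPM in Prmt1-dKO). Of 7 partners of TEX10 in the rixosome and of 6 further ER-phagy receptors beside TEX264, 0 were called in either assay.

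Among the sorted libraries, some members were detected in Prmt1-dKO only, although all of these but Tex50 and Tex52 also had counts in bulk WT. Of the 18 members at 0 in both sorted WT libraries, 8 had a count in both Prmt1-dKO libraries, while 19.6% of such genes did. In the opposite direction, 0 of 10 members at 0 in Prmt1-dKO had a count in both WT libraries, as did 0.851% of such genes. Tex26 had 34 and 15 counts, Tex37 had 13 and 32, Tex45 had 22 and 11, and Tex52 had 12 and 13. Against a floor of 3 counts over the WT group, these counts were 18.2-fold higher for Tex26, 16.7-fold for Tex37, 12.3-fold for Tex45 and 9.29-fold for Tex52. These ratios carry no margin for the spread of the Prmt1-dKO counts.

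Tex33 (4 and 16 counts), Tex22 (3 and 10), Tex21 (3 and 5) and Tex50 (2 and 1) were the other 4. All of these levels are low, at most 3.96 TPM (Tex37). The WT libraries, although deeper, detected fewer genes, as given above. Spermatid markers summed to 0 TPM in both WT libraries and to 11.03 and 6.47 TPM in Prmt1-dKO, with Tnp2 at 0 in all. Macrophage markers summed to 0 in both WT libraries and to 7.54 and 9.75 TPM in Prmt1-dKO, with Adgre1 at 0 in all, and endothelial markers to 0 and to 1.09 and 1.04 TPM. Leydig markers (6.97 and 0.12 TPM in WT, 4.74 and 8.13 TPM in Prmt1-dKO) and peritubular markers (5.41 and 0 TPM, then 3.37 and 3.95 TPM) overlapped, and edgeR called 0 markers of these lists. The part of these in the members' detection was not tested. In bulk, Tex50 alone had 0 counts in every WT library and a count in every Prmt1-dKO library (1, 6 and 6), and 6.58% of genes at 0 in WT did so.

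Promoter marks were read from the peak lists. A promoter is the stretch within 3000 bp of any annotated start site of a gene, and a gene counted as marked where at least 2 replicate lists held a peak summit there. H3K4me3, the mark of active and poised promoters, was present at P7 on 10 of 28 members, while 61.7% of 20807 autosomal protein-coding genes had it. They were Tex2, Tex9, Tex10, Tex14, Tex15, Tex22, Tex30, Tex101, Tex261 and Tex264. Hence 9 of the 10 members expressed in WT were marked, while the share among all expressed genes was not counted. Tex19.2 was the exception, with about 30 TPM in bulk WT and no H3K4me3 promoter peak in either P7 list. Tex22 was the reverse, marked in both lists with summits at -59 and -92 bp from a start site and a mean of 0.14 TPM in bulk WT.

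The 8 marked members with a RefSeq promoter had 17 to 41 CpGs (median 25), and the 16 unmarked ones had 0 to 15 (median 3), so the sets did not overlap. All genes were not split this way, so the division is not shown to be particular to these members. Tex26, with 15 CpGs, was the unmarked member with the most. It had a peak in 1 of 2 H3K4me3 lists at either age. The start site of Tex14 lies 111 bp from that of Rad51c on the opposite strand, so marks there belong to both promoters.

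**Figure D3:**
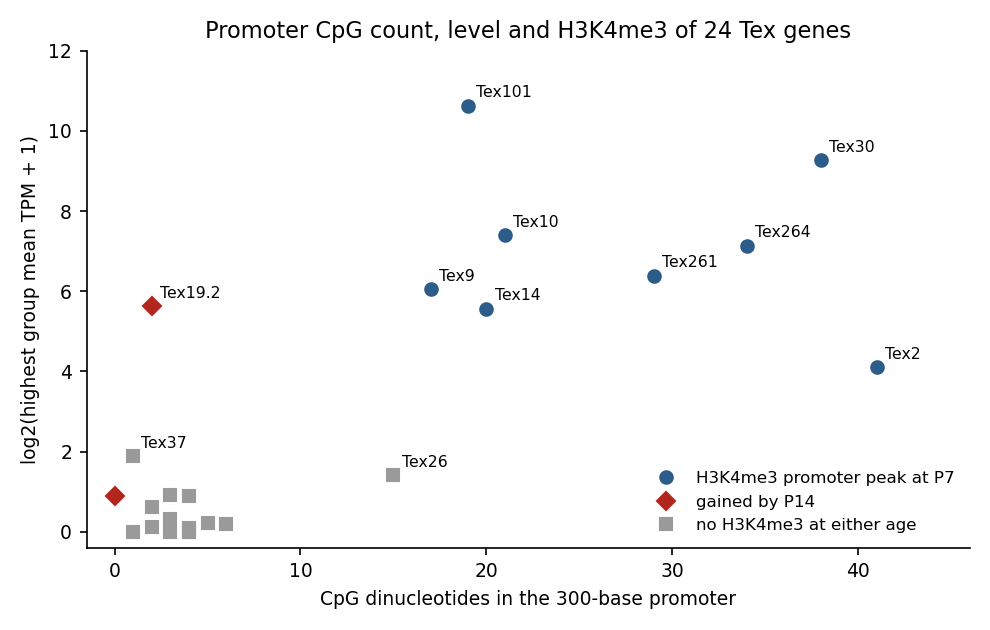
CpG dinucleotides in the 300-base promoter (horizontal axis, the highest where a gene has several) against the highest group mean as log2(TPM + 1) for 24 members, with H3K4me3 state by symbol. Marked promoters begin at 17 CpGs, and 3 members without the mark at P7 reach 1 TPM in some group, Tex19.2 (48.7 TPM, 2 CpGs), Tex37 (2.695 TPM, 1 CpG) and Tex26 (1.67 TPM, 15 CpGs).

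From P7 to P14, Tex19.2 and Tex45 gained H3K4me3, 2 of 18 members without it at P7, against 9.61% of genes. At Tex19.2 (chr11:121116215-121118677, minus strand) the P14 peaks were 655 and 778 bp wide, with 5.94-fold and 5.31-fold enrichment and summits 468 and 295 bp into the gene. Its promoter already held H3K27ac and H3R8me2a in both P7 lists, kept both at P14, and gained H3R2me2a as well. At Tex45 (chr8:3470862-3487181, plus strand) the summits lay 1919 and 2188 bp downstream of the first start site and at -2330 and -2254 bp from the other, so away from the promoter printed above, and the gain was absent with a window of 1000 bp or with lists of equal length. Tex45 had 0.16 TPM in bulk WT at P7. RNA at P14 was not analysed here.

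Without regard to H3K4me3 at P7, gains of the other marks lay below the share of all genes except for H4R3me1. With lists of equal length H4R3me1 lay below it too, and with a window of 1000 bp H4R3me2s lay above it (7 of 28, against 22.7%). Fewer members than genes carried H3K4me3 at P7, and the gains are split by it below. Promoters of 5 members carried H4R3me2a at P7 and 11 at P14 (16.1% and 51.1% of genes), 1 and 13 carried H3R2me2a (11.5% and 53.4%), 3 and 8 carried H3R8me2a (10.2% and 34.5%), and 2 and 10 carried H4R3me1 (11.4% and 31.4%). H4R3me2s was on 2 and 7 members (18.6% and 35.8%), H3K27ac on 8 and 12 (32.0% and 49.8%) and H3K4me3 on 10 and 12 (61.7% and 64.0%). Of 27 members without H3R2me2a at P7, 12 gained it (48.4% of genes did), and 7 of 23 gained H4R3me2a (44.3%). H4R3me1 came to 9 of 26 (26.2%), H3R8me2a to 6 of 25 (29.3%), H4R3me2s to 6 of 26 (26.3%) and H3K27ac to 4 of 20 (28.5%). Single lists weigh heavily in these counts: leaving out 1 list gave 4 to 9 gains for H4R3me2a, 5 to 14 for H4R3me1, 4 to 10 for H3R8me2a, 2 to 6 for H4R3me2s and 3 to 7 for H3K27ac. Lists grew with age, from 15361 to 24193 peaks at P7 to 29030 to 55908 at P14 for the arginine marks other than H4R3me2s. The part of list length in the gains was not tested. With lists of equal length the gains numbered 6 of 27 for H4R3me2s (22.8% of genes), 5 of 27 for H3R2me2a (26.5%), 5 of 26 for H4R3me1 (20.9%), 4 of 25 for H3R8me2a (16.9%), 3 of 20 for H3K27ac (19.9%) and 2 of 23 for H4R3me2a (25.5%), so which mark came to most members depended on this setting. Losses were few: Tex46 lost H4R3me2a (13.4% of marked genes did), Tex261 lost H3R8me2a (19.4%), Tex45 lost H4R3me1 (28.3%) and Tex2 lost H4R3me2s (22.5%). The P7 peaks of Tex2 and Tex261 behind these losses lay at different start sites in the 2 lists.

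**Figure D4:**
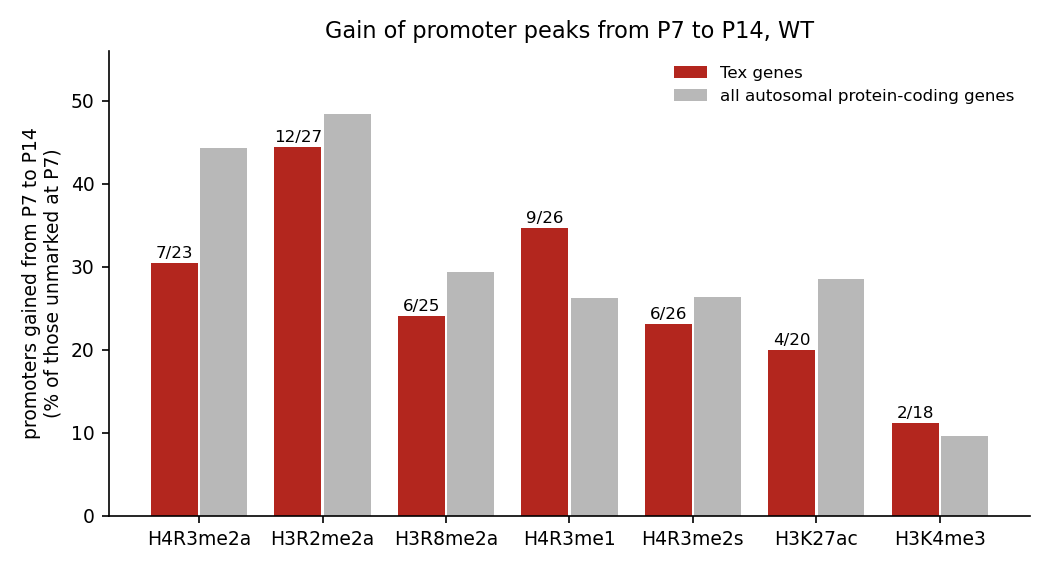
Share of promoters unmarked at P7 that were marked at P14 (vertical axis, percent, WT) for each of 7 marks, for the Tex genes with their counts above the bars and for all autosomal protein-coding genes. The Tex genes lie above the grey bars for H4R3me1 (9 of 26 against 26.2%) and H3K4me3 (2 of 18 against 9.61%), and below them elsewhere.

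Of the 44 gains of marks other than H3K4me3, 35 fell on the members that carried H3K4me3 at P7 and 9 on the others. Among the former, 6 of 7 gained H4R3me2a (67.6% of genes with H3K4me3 did), 8 of 9 H3R2me2a (71.7%), 6 of 8 H3R8me2a (46.9%), 6 of 9 H4R3me1 (41.3%), 6 of 8 H4R3me2s (44.3%) and 3 of 3 H3K27ac (56.8%). Among the members without it, 1 of 16 gained H4R3me2a (14.4% of such genes), 4 of 18 H3R2me2a (16.3%), 0 of 17 H3R8me2a (4.81%), 3 of 17 H4R3me1 (5.42%), 0 of 18 H4R3me2s (5.18%) and 1 of 17 H3K27ac (5.61%). With H3K4me3 the members thus lay above the share of such genes for each of these marks. Without it they lay above for H3R2me2a, H4R3me1 and H3K27ac and below for the others. All genes show the same division, and whether the members differ from it was not tested.

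By gene, Tex10 gained most widely and carried all 7 marks at P14, with H4R3me2a, H3R2me2a, H3R8me2a, H4R3me1 and H4R3me2s new. Tex2 also gained 5, H4R3me2a, H3R2me2a, H3R8me2a, H4R3me1 and H3K27ac, but for H4R3me2a and H3R8me2a the lists held their peaks at different start sites of the gene, with 1 list at each. All other gains had peaks from at least 2 lists within 3000 bp of the same start site. Tex14 gained H4R3me2a, H3R2me2a, H3R8me2a and H4R3me1. Tex15 gained H4R3me2a, H3R2me2a, H3R8me2a and H4R3me2s, and Tex264 gained H4R3me2a, H3R8me2a, H4R3me2s and H3K27ac. Tex9 gained H4R3me2a, H3R2me2a and H4R3me2s, and Tex22 gained H3R2me2a, H3R8me2a and H4R3me1.

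Tex101 gained H3R2me2a, H4R3me2s and H3K27ac, and its promoter held H3K4me3 alone at P7. Its H3K4me3 peaks were 214 and 205 bp wide with 5.03-fold and 5.98-fold enrichment at P7, and 646 and 798 bp wide with 8.88-fold and 7.39-fold enrichment at P14, all with summits 106 to 193 bp into the gene. Fold enrichment is relative to each library's own background, so the ages are given side by side only. Tex30, marked by 5 of the 7 at P7, gained H4R3me1 and H4R3me2s and carried all 7 at P14. Tex261 gained H3R2me2a and H4R3me1.

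The members without H3K4me3 mostly stayed bare, and 11 of the 18 had no mark at P14. The share of all such genes that stayed bare was not counted. Each of the other marks came to 4.81% (H3R8me2a) to 16.3% (H3R2me2a) of such genes that lacked it. Where they gained, the peaks often lay far from the start site. At Tex37 the summits of the gained H4R3me1 peaks lay at -2820 and -2918 bp. At Tex44, which gained H4R3me2a and H3R2me2a, the summits lay 613 to 1724 bp into the gene. The start site of Nmur1 lies 101 bp from that of Tex44 on the opposite strand, so these marks belong to both promoters. Tex43 gained H3K27ac with summits at -920 and -888 bp from a start site and had 0 counts in every RNA library. Tex21 gained H3R2me2a and H4R3me1, and Tex46 gained H4R3me1.

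**Figure D5:**
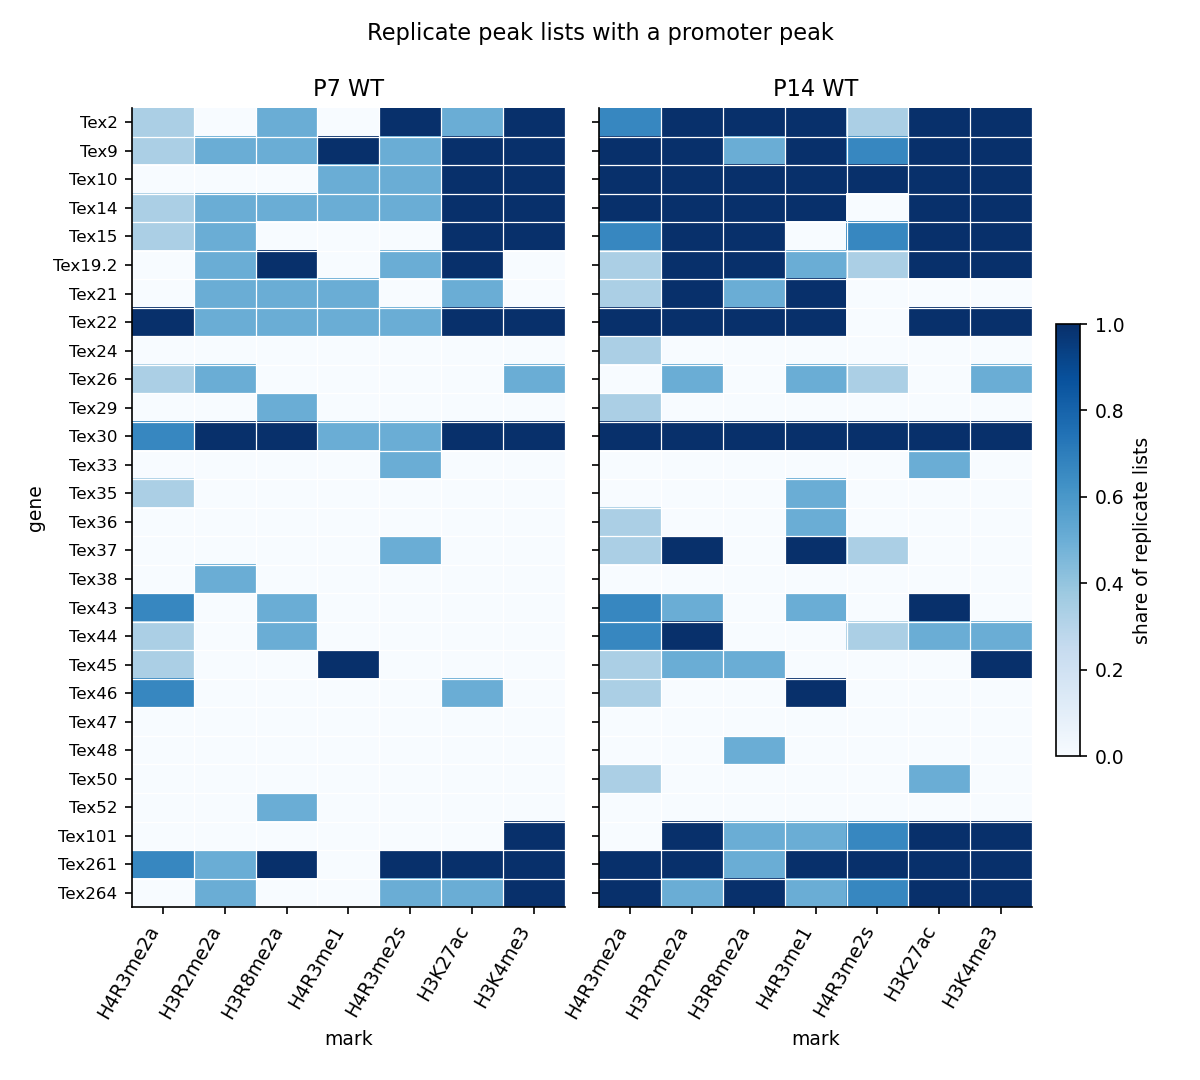
Share of replicate lists (colour, 0 to 1) with a peak summit within 3000 bp of a start site, for the 28 members (rows) and 7 marks (columns) in WT at P7 and P14. Rows of the expressed members fill between the ages, as Tex10 does with 5 new marks, while 11 members without H3K4me3 at P7 have no mark in at least 2 lists at P14.

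H4R3me2s at P7 could be compared between the genotypes, with 2 lists each. Tamoxifen is recorded for the Prmt1-dKO lists only, so its part cannot be told apart from that of genotype. Of 2 marked members in WT, Tex2 and Tex261, both were unmarked in Prmt1-dKO, as were 74.6% of all marked genes. In neither gene did the WT lists hold their peaks at the same start site, and 1 Prmt1-dKO list had a peak at Tex2, 406 bp into the gene. Losses numbered 0 with a window of 1000 bp or at q of at most 0.01, and 11 without WT replicate 1. Tex38 gained it, 1 of 26 unmarked members, against 6.81% of genes, and was then the 1 marked member in Prmt1-dKO (10.3% of genes were marked). The WT lists were unequal, with 19981 and 36145 peaks, and held promoter peaks at 2 and 11 members. The Prmt1-dKO lists held 33941 and 28221 peaks.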

How the data were processed

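Gene tables of 10 RNA libraries and 33 CUT&Tag peak lists were used, grouped by their labels. Reads had been trimmed (fastp) and aligned to mm10 (STAR) by the authors, whose RSEM tables give unnormalized expected counts. The TPM that the authors deposited are scaled within each library, and the FPKM beside them was not used. After rounding, genes with low counts were removed (filterByExpr, minimum count 10 and minimum total 15), TMM factors were computed, and edgeR 4.0.16 (R 4.3.3) was fitted to all remaining genes, with DESeq2 1.42.0 as an alternative. Of 55401 identifiers, 55141 matched GENCODE vM21.

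Peaks had been called sample by sample (MACS2 2.1.0), and each deposited list gives a fold enrichment ratio, −log10 p and −log10 q from the authors. Their read depth is unknown. Scripts were tested on simulated data.

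Members and lists were chosen with earlier results of these data known. The restriction to genes with a count in every group and the check for peaks at the same start site were added after the values were seen. Every member could be named, with values in each library for those at a mean of at least 1 TPM or detected only in 1 genotype, and marks in full for those that gained H3K4me3 or at least 3 marks. Alternatives were other tools, scalings, filters, thresholds, windows and leaving out each library. Protein sequences were not used here.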

Additional observations from a re-analysis of the deposited data

Results flagged for a closer look

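For 2 of the 10 members with a count in all 4 groups, the genotype difference in sorted cells differed from that in whole testis. This rests on an interaction term in a model of all 10 libraries. Tex101 had a difference of differences of log2 -1.59 (edgeR FDR = 0.00536), lower in 2 of 2 sorted Prmt1-dKO libraries and, on the CPM scale, higher in 3 of 3 bulk Prmt1-dKO libraries. Tex19.2 had log2 0.94 (edgeR FDR = 0.0368), higher in 2 of 2 sorted Prmt1-dKO libraries, and the result was lost under several alternatives. Tex26 is not among them: it passed the FDR with a fitted log2 7.64 (edgeR FDR = 0.00276) that rests on 0 counts in sorted WT. That value depends on the prior count, with 49 counts over the 2 sorted Prmt1-dKO libraries. No group of libraries held enough samples to test for a single aberrant library.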

How the results depend on the processing

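Replicate numbers did not pair the RNA libraries (correlations of deviations -0.22 to 0.08 in bulk, 0.02 in sorted cells). With a replicate block, edgeR called 0 members in bulk, 0 in sorted cells, 2 for the interaction (Tex101 and Tex26, with Tex19.2 at log2 0.96 and FDR = 0.112) and 0 of any gene for WT sorted against WT bulk, where 1 residual degree of freedom is left and Tex14 turned to log2 -0.0845. No paired analysis was possible for the peak lists because their counts come from no test.

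Without a filter on low counts Tex50 was called in bulk (1 member). In sorted cells DESeq2 called 1 member, and leaving out a library gave 0 to 6 called members, 6 without WT replicate 1 (Tex2, Tex14, Tex26, Tex37, Tex45 and Tex101) and 4 without WT replicate 2. Leaving out a library gave 2 to 6 members for the interaction, 6 without sorted WT replicate 1. Tex26, Tex37 and Tex45 had 0 counts in sorted WT, so these tallies include genes that passed the filter through Prmt1-dKO alone. On the count scale all 10 bulk members kept their direction under these alternatives, while Tex9, Tex14 and Tex30 turn on the TPM scale. Elsewhere the direction turned when a library was left out in members that were not called: in sorted cells for Tex9 (log2 -0.0956 to 0.55) and Tex14 (-0.13 to 1.47), in WT sorted against bulk for Tex2 (-0.51 to 0.26) and Tex14 (-0.91 to 0.70), and in the interaction for Tex9 (-0.0755 to 0.56) and Tex15 (-0.20 to 0.42, and -0.0497 with RLE). RLE moved the median interaction of all genes from log2 0.22 to 0.10.

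Gained promoters with only peaks at q of at most 0.01 numbered 4 for H4R3me2a (19.8% of all genes), 5 for H3R2me2a (29.3%), 3 each for H3R8me2a (11.3%) and H4R3me1 (10.1%), 9 for H3K27ac (33.6%) and 2 for H4R3me2s (5.78%). At equal list length they numbered 2 for H4R3me2a (25.5% of all genes), 5 for H3R2me2a (26.5%), 5 for H4R3me1 (20.9%), 4 for H3R8me2a (16.9%), 6 for H4R3me2s (22.8%), 3 for H3K27ac (19.9%) and 1 for H3K4me3 (3.46%). H3K4me3 gains numbered 1 with a window of 1000 bp (8.32%), and H3R2me2a gains 7 where 1 list sufficed (55.8%), under H4R3me1 with 11 (40.0%). Leaving out a list gave 4 to 9 gains for H4R3me2a (28.8% to 47.7% of all genes), 8 to 14 for H3R2me2a (43.2% to 59.5%), 5 to 14 for H4R3me1 (21.0% to 39.7%), 4 to 10 for H3R8me2a (25.4% to 42.6%), 3 to 7 for H3K27ac (21.2% to 38.2%), 2 to 6 for H4R3me2s (13.4% to 22.5%) and 2 to 3 for H3K4me3 (6.96% to 14.8%). For H4R3me2s between genotypes, gains were 0 and losses 0 at q of at most 0.01 and with 1000 bp, 2 and 7 where 1 list sufficed, 0 and 1 at equal list length, and 1 to 4 and 1 to 11 when a list was left out. Gains over all genes were 0.0684%, 3.999%, 28.4%, 3.66% and 5.73% to 23.5% under these settings in turn. The causes were not tested, except that a group of 2 lists needs only 1 once the other is left out.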
